A study of Mus musculus with 2 samples.

Results

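The 9 genes described here, Ifit1, Ifit2, Ifit3, Ifit3b, Ifit1bl1, Mx1, Mx2, Rsad2 and Cmpk2, are interferon-induced antiviral genes that were chosen by name. All 9 were found among the 55357 features of the count matrices. The cells were live CD45-positive leukocytes sorted from the lungs of C57 mice bearing metastases of the mouse melanoma line B16F10. In the C435A group the tumour cells carried IRF7 with the amino acid change C435A, and in the WT group they carried wild-type IRF7, a transcription factor that switches on type I interferon genes. Both groups thus had the same tumour line and the same kind of host, and the labels give the genotype beside the B16F10 line, so it is read here as that of the tumour and not of the sorted immune cells. The sources used here do not give how the IRF7 forms were introduced, whether each line is 1 clone, or the age and number of mice. Each group was 1 library, called the C435A library and the WT library below. With 1 library per group there was no replicate check and no test, and each ratio describes these 2 libraries.

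The C435A library held 10271 cells after filtering, with a median of 3425 UMIs (unique molecular identifiers, each marking 1 captured RNA molecule), and the WT library held 9999 cells with a median of 2798 UMIs. Ptprc, which encodes CD45, was seen in 91.8% of cells of the C435A library and 88.5% of the WT library, whereas the labels call the cell type melanoma cell. The libraries shared 24 cell barcodes. Cells were put into 13 classes by summed UMIs of marker genes, none of which is among the 9 genes, and 9 classes had at least 200 cells in each library. Cells that passed the gates of more than 1 lineage were left out of the classes. These mixed cells made up 14.9% of cells in the C435A library and 10.3% in the WT library. UMIs of melanoma markers (Pmel, Mlana, Dct, Tyrp1 and Tyr summed) were higher in the WT library in all 9 classes, at 13.9 to 52.9 CPM (UMIs per 1000000 UMIs of the same cells) in the C435A library and 29.1 to 127 CPM in the WT library. UMIs of 4 erythroid markers were higher in the WT library in 7 of 9 classes, for example at 19.95 CPM in the C435A library and 2362 CPM in the WT library in CD4 T cells. They went the other way in alveolar macrophages (444 and 27.4 CPM) and CD8 T cells (135 and 29.0 CPM). The part of either in the results below was not tested.

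Type I and type III interferons switch on antiviral genes through interferon-stimulated response elements, short DNA sequences before the start of those genes. IFIT proteins are built of tetratricopeptide repeats and bind foreign or improperly capped RNA, and Mx proteins are dynamin-like GTPases that block virus replication. Rsad2 encodes viperin, an enzyme that makes a modified cytidine nucleotide which stops viral polymerases, and Cmpk2 encodes a mitochondrial nucleotide kinase that can supply its substrate. In most laboratory mice, C57BL/6 among them, Mx1 and Mx2 carry disabling mutations, and RefSeq lists both as transcribed pseudogenes.

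In the GENCODE M21 annotation of GRCm38 the Ifit genes lay in 1 cluster on chromosome 19. From Ifit2 (chr19:34550694-34576419) the order was Ifit3 (chr19:34583531-34588731), Ifit1bl1 (chr19:34592891-34601956), Ifit3b (chr19:34607970-34613401) and Ifit1 (chr19:34640871-34650009), all on the plus strand except Ifit1bl1. Rsad2 (chr12:26442746-26456452, minus strand) and Cmpk2 (chr12:26469204-26479837, plus strand) lay head to head with 12751 bases between them. Mx1 (chr16:97447035-97462907, minus strand) and Mx2 (chr16:97535308-97560900, plus strand) were neighbours on chromosome 16.

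The promoters of 5 members are shown because they hold matches to the core of the interferon-stimulated response element. Each is from RefSeq on GRCm38.p6, from 250 bases before to 50 bases after the gene's start, on the gene's own strand. Capitals mark matches to GAAANNGAAA, that core, searched on both strands, and every match was on the strand opposite to the gene and so reads as TTTCNNTTTC. The promoters are those of Ifit1 (chr19:34640639-34640938, plus strand), Ifit3 (chr19:34583279-34583578, plus strand), Ifit3b (chr19:34607707-34608006, plus strand), Ifit1bl1 (chr19:34601919-34602218, minus strand) and Rsad2 (chr12:26456403-26456702, minus strand).
Ifit1: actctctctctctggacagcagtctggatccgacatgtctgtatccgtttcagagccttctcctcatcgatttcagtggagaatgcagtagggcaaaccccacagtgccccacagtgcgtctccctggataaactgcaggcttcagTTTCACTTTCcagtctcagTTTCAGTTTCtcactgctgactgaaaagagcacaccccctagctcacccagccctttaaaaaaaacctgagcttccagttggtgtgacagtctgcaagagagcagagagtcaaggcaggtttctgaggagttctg
Ifit3: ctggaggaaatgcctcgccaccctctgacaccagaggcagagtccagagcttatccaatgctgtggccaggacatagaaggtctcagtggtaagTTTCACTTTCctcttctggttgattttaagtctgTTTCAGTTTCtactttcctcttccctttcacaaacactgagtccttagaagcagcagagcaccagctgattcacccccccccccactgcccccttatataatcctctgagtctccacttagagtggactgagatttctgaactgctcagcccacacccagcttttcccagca
Ifit3b: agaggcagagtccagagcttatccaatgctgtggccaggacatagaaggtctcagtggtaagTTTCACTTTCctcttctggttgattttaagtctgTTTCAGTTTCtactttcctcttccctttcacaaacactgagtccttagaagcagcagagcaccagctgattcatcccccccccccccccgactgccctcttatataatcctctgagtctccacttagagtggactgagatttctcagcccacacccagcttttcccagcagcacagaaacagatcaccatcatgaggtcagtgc
Ifit1bl1: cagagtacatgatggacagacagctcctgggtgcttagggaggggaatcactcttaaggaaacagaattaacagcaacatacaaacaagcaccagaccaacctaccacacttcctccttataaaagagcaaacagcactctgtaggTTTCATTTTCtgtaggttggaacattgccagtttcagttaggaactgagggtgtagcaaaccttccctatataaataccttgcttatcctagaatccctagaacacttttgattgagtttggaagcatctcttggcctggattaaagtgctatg
Rsad2: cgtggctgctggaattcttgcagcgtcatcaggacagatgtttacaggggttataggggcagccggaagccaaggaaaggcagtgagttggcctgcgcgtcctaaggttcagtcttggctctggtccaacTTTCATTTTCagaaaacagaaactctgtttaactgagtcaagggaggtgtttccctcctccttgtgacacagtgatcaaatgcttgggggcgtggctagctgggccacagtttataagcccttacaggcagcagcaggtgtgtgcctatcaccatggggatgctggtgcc

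Ifit1, Ifit3 and Ifit3b had 2 matches each, and Rsad2 and the printed Ifit1bl1 promoter had 1. No match stood in the promoters of Ifit2 and Cmpk2, and Mx1 and Mx2 had no promoter entry. Of 32851 promoters in the table, 3.44% held a match and 0.225% held 2 or more. Of the 31 other interferon-induced genes listed below that had a promoter, 15 held a match. The Ifit3 and Ifit3b promoters aligned with 259 identical bases, 1 mismatch and 80 gap positions, which come from an offset of their windows and from insertions or deletions between them. Their transcripts share sequence as well. Of the 451 windows of 50 bases in the last 500 bases of the Ifit3 transcript, 14.9% stood unchanged in Ifit3b, and none of those of Ifit3b stood in Ifit3. How reads shared by both were counted is not given in the sources used here, so the split between Ifit3 and Ifit3b is uncertain. In the same way 9.09% of windows of Ifit1bl1 stood in Ifit1bl2, a neighbour outside the set.

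Over all kept cells the 9 genes together were lower in the C435A library. They had 4685 UMIs in the C435A library (78.8 CPM) and 6384 UMIs in the WT library (117 CPM), a log2 ratio of -0.57 (95% interval -0.62 to -0.51). This exact interval, like all others here, covers counting error only. The 9 genes were not lower to the same extent. Relative to WT, 5 of 9 were lower by at least 1.5-fold and none was higher by that much, where 18.1% of the 18102 genes with at least 20 UMIs were lower and 7.80% were higher. The median log2 ratio of the 9 genes was -0.64, and that of all those genes was -0.08.

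Rsad2 differed most, with 500 UMIs in the C435A library (8.41 CPM) and 1072 in the WT library (19.6 CPM), a log2 ratio of -1.22 (-1.38 to -1.07). Ifit1 had 695 UMIs in the C435A library (11.7 CPM) and 1258 in the WT library (23.0 CPM), a log2 ratio of -0.98 (-1.11 to -0.84). Ifit3 had 732 and 1051 UMIs in the C435A and WT libraries (-0.64, -0.78 to -0.51). These 3 genes had the widest gaps in UMIs. Ifit3b had 159 UMIs in the C435A library and 255 in the WT library (-0.80, -1.10 to -0.51), and Ifit3 and Ifit3b summed gave -0.67 (-0.80 to -0.55). Mx2, the scarcest member, had 96 UMIs in the C435A library and 156 in the WT library (-0.82, -1.20 to -0.45). Cmpk2 had 7.32 CPM in the C435A library and 10.1 CPM in the WT library (-0.46, -0.65 to -0.28), an interval below 0 although the ratio did not reach 1.5-fold.

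The other members were near equal. Ifit2 had 710 UMIs in the C435A library (11.9 CPM) and 700 in the WT library (12.8 CPM), Ifit1bl1 had 697 and 682, and Mx1 had 661 and 659. Their log2 ratios of -0.10, -0.09 and -0.12 had intervals that held 0, and all 3 turned slightly positive with median-ratio size factors, which move every ratio by 0.12.

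The level of the 9 genes summed differed widely between cell classes, and so did the ratio between the libraries. Among the 9 compared classes of the WT library, neutrophils were highest at 312 CPM, followed by monocytes at 254 CPM. The T cell classes lay between 155 and 175 CPM, B cells were at 60.8 CPM, alveolar macrophages at 50.3 CPM, NK cells at 38 CPM and plasma cells at 9.0 CPM. In the C435A library the order was monocytes (145 CPM), other T cells, which are T cells not assigned to CD4 or CD8 (128 CPM), neutrophils (110 CPM), CD4 T cells (88.7 CPM), CD8 T cells (81.5 CPM), B cells (69.1 CPM), NK cells (41.5 CPM), alveolar macrophages (32.2 CPM) and plasma cells (11.4 CPM). Neighbours in these orders had overlapping 95% counting intervals, except B against NK cells and alveolar macrophages against plasma cells in the C435A library, and in the WT library neutrophils against monocytes, monocytes against other T cells, CD8 T cells against B cells and NK against plasma cells.

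**Figure D1:**
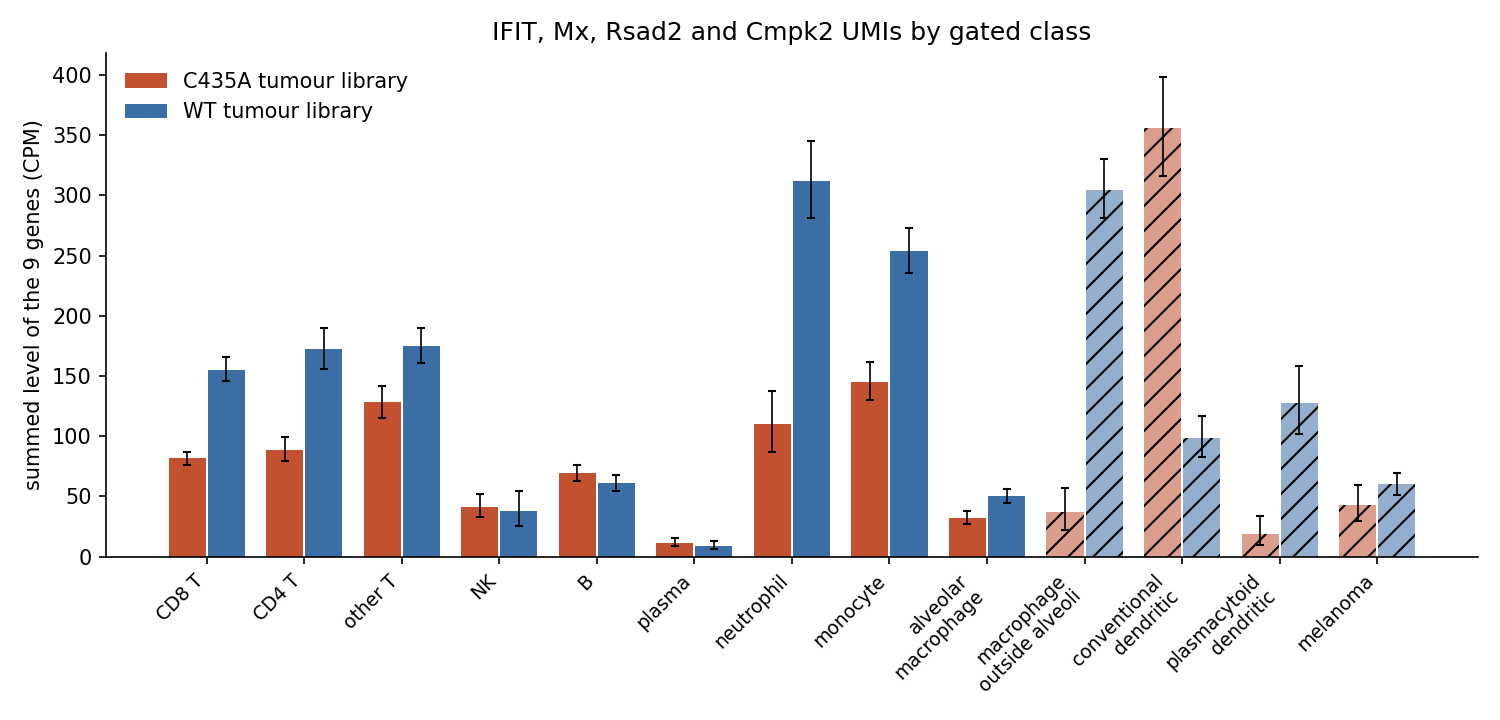
Summed level of the 9 genes in CPM (y axis) for each gated class (x axis), with the C435A library left of the WT library. Error bars are exact 95% Poisson intervals for counting error, and hatched bars are classes with under 200 cells in a library. Bars of the WT library are higher in the T cell classes, neutrophils, monocytes and alveolar macrophages, while those of NK, B and plasma cells have overlapping intervals.

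Neutrophils showed the widest gap of the compared classes, with 110 CPM in the C435A library and 312 CPM in the WT library (log2 ratio -1.50, -1.87 to -1.15). Other markers moved with this class. UMIs of 3 epithelial markers numbered 5 in neutrophils of the C435A library (6.97 CPM) and 45 in those of the WT library (36.8 CPM), and the airway secretory genes Scgb1a1, Bpifa1, Reg3g and Scgb3a1 were among the 10 leading genes of the gate, by fold over all other cells of its library, in the WT library and not in the C435A library. Their part in the gap was not tested. CD4 T cells (-0.96, -1.17 to -0.74), CD8 T cells (-0.93, -1.06 to -0.80), monocytes (-0.81, -1.0 to -0.62), alveolar macrophages (-0.64, -0.93 to -0.36) and other T cells (-0.45, -0.65 to -0.26) were also lower in the C435A library. In NK cells (0.13, -0.50 to 0.78), B cells (0.19, -0.03 to 0.40) and plasma cells (0.34, -0.32 to 1.01) the interval held 0. The B cell ratio turned to -0.072 without the 10 highest cells of each library, and that of plasma cells to -0.10. Within the compared classes, 5 of the 5 members with at least 20 UMIs were lower by at least 1.5-fold in neutrophils (10.6% of all genes measured there), 6 of 9 in monocytes (8.97%), 5 of 9 in CD8 T cells (21.0%, with 1 higher where 17.5% of all genes were higher), 4 of 8 in CD4 T cells (12.5%), 4 of 8 in other T cells (9.27%) and 3 of 7 in alveolar macrophages (5.02%). In B cells none of 9 was lower by that much (5.55% of all genes) and 1 was higher (4.32%). Of the 2 members measured in NK cells 1 was higher (7.40%), and so was 1 of 2 in plasma cells (9.28%).

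The classes also differed in which members they used. In CD8 T cells the 5 Ifit genes made up 76.7% of the summed UMIs in the C435A library and 84.3% in the WT library, and Rsad2 and Cmpk2 9.11% and 8.15%. In neutrophils the Ifit genes made up 41.8% in the C435A library and 37.7% in the WT library, and Rsad2 and Cmpk2 55.7% and 57.6%. NK cells had mostly Ifit2 (26 UMIs in the C435A library, 12 in the WT library) and Mx1 (25 and 6), with 3 UMIs of Ifit1 in the C435A library and 0 in the WT library. There the limit for a count of 0, set at 3 UMIs, corresponds to 3.80 CPM. Plasma cells had Mx1 (22 UMIs in the C435A library, 6 in the WT library) and Cmpk2 (18 and 14), but no UMI of Ifit3 in either library. All 22 Mx1 UMIs of plasma cells in the C435A library came from 8 cells, of which 1 held 8.

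**Figure D2:**
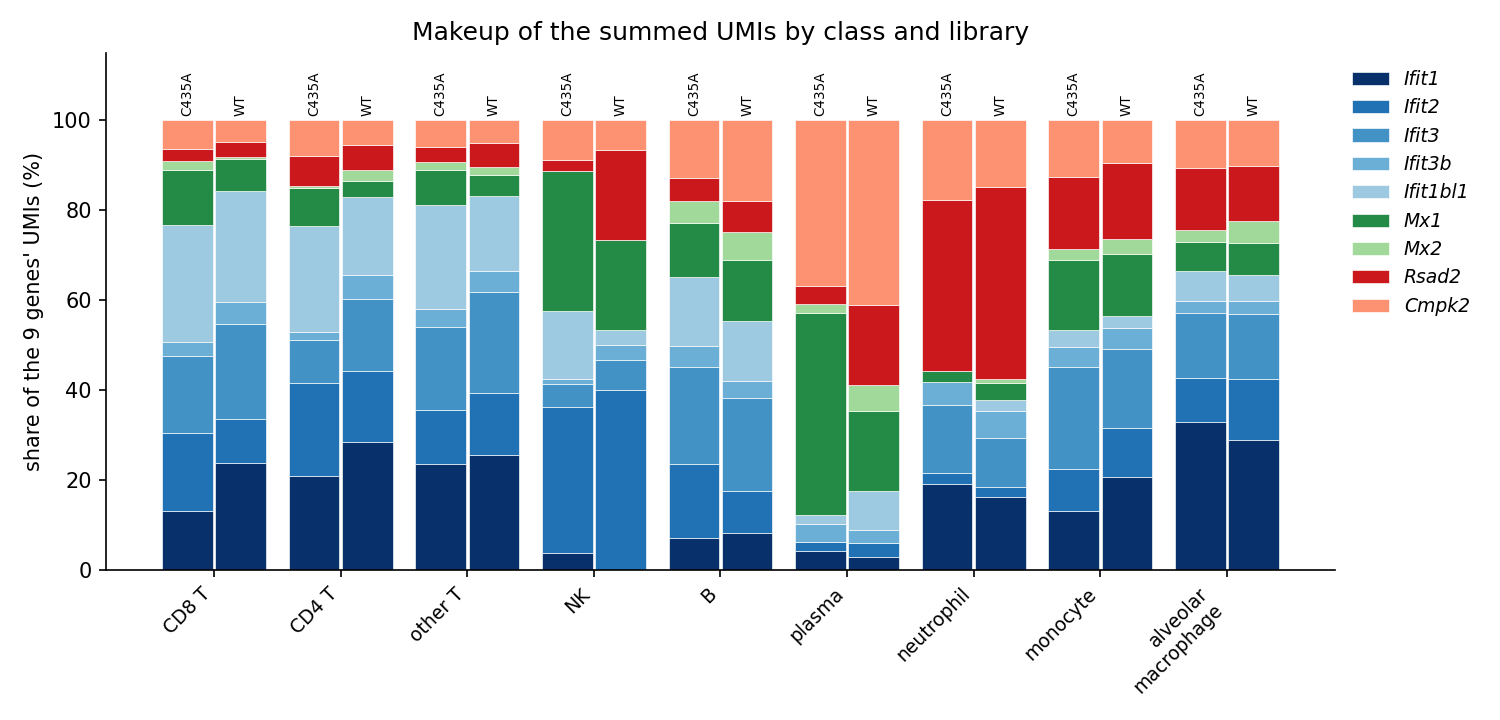
Share of the summed UMIs (y axis, percent) held by each of the 9 genes in each compared class (x axis), with the C435A library left of the WT library. Ifit genes in blue fill 76.7% of the CD8 T cell bar in the C435A library and 84.3% in the WT library, and Rsad2 and Cmpk2 in red fill 55.7% and 57.6% of the neutrophil bars.

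Ifit1, whose human counterpart binds improperly capped RNA, was lower in the C435A library in every T cell class and in neutrophils and monocytes. Its level was 10.6 CPM in the C435A library and 37.0 CPM in the WT library in CD8 T cells (-1.81, -2.14 to -1.47), and 18.6 and 49.0 CPM in CD4 T cells (-1.40, -1.86 to -0.95). The CD8 T cell value pools cell states that were present in different shares in the 2 libraries, and Ifit1 in each state is given below. Monocytes had 18.8 CPM in the C435A library and 52.7 CPM in the WT library (-1.48, -2.0 to -0.99), and neutrophils had 20.9 and 50.7 CPM (-1.28, -2.20 to -0.45). Ifit1 was thus at like levels in CD4 T cells, neutrophils and monocytes of the WT library. The gap was smaller in other T cells, at 30.2 CPM in the C435A library and 44.8 CPM in the WT library (-0.57, -0.97 to -0.18). In alveolar macrophages (10.6 and 14.5 CPM) and B cells (4.90 and 4.94 CPM) the intervals held 0.

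Ifit3, which acts beside IFIT1 in human cells, followed the same classes. CD8 T cells had 13.8 CPM in the C435A library and 32.9 CPM in the WT library (-1.25, -1.57 to -0.94), and CD4 T cells had 8.59 and 27.9 CPM (-1.70, -2.37 to -1.06). Other T cells had 23.5 CPM in the C435A library and 39.2 CPM in the WT library (-0.74, -1.19 to -0.30), neutrophils 16.7 and 34.3 CPM (-1.04, -2.10 to -0.08) and monocytes 33.0 and 44.8 CPM (-0.44, -0.87 to -0.03). B cells had 14.9 CPM in the C435A library and 12.5 CPM in the WT library, and alveolar macrophages 4.65 and 7.18 CPM, with intervals that held 0. Its near copy Ifit3b was lower in the C435A library by a log2 ratio of -1.52 in CD8 T cells, -2.70 in CD4 T cells and -1.75 in neutrophils, from at most 46 UMIs in a class and library. Its intervals held 0 in other T cells (-0.67), monocytes (-0.90) and B cells (0.50). Ifit3 and Ifit3b summed, which does not depend on the split of shared reads, gave -1.30 (-1.58 to -1.01) in CD8 T cells and -1.89 (-2.49 to -1.31) in CD4 T cells.

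Ifit2, an RNA-binding member linked to cell death, did not follow Ifit1 in CD8 T cells, where it had 14.3 CPM in the C435A library and 15.1 CPM in the WT library (-0.08, -0.46 to 0.31). It was lower in the C435A library in monocytes (13.7 and 27.4 CPM, -1.0, -1.64 to -0.39), alveolar macrophages (3.17 and 6.85 CPM, -1.11, -2.07 to -0.23), other T cells (15.4 and 24.1 CPM, -0.64, -1.21 to -0.09) and CD4 T cells (18.3 and 27.1 CPM, -0.57, -1.09 to -0.04). B cells went the other way, with 63 UMIs in the C435A library (11.4 CPM) and 35 in the WT library (5.77 CPM), a log2 ratio of 0.99 (0.37 to 1.63). Those UMIs came from 47 cells of the C435A library, with at most 7 in 1 cell, and from 30 cells of the WT library. NK cells had 13.5 CPM in the C435A library and 15.2 CPM in the WT library, with an interval that held 0.

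Ifit1bl1 is named for its likeness to Ifit1. In CD8 T cells it was the most abundant of the 9 genes, with 228 UMIs in the C435A library (21.2 CPM) and 237 in the WT library (38.5 CPM), a log2 ratio of -0.86 (-1.13 to -0.59). CD4 T cells had 21.1 CPM in the C435A library and 30.1 CPM in the WT library (-0.51, -1.0 to -0.02), and other T cells 29.5 and 29.4 CPM. It was scarce in myeloid cells, at 5.56 CPM in the C435A library and 6.5 CPM in the WT library in monocytes, 2.12 and 2.94 CPM in alveolar macrophages, and 0 and 9 UMIs in neutrophils. B cells had 10.5 CPM in the C435A library and 8.08 CPM in the WT library. In NK cells there were 12 UMIs in the C435A library and 1 in the WT library. Of the 9 genes, Ifit1bl1 thus had a T cell pattern in both libraries, with lower levels in every compared class outside the T cells.

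Among the compared classes Mx1 was highest in monocytes. Adgre4, Lst1, Ace and Cd300a were among the 10 leading genes of this gate in the C435A library alone, and Prtn3, Ccr2, Vcan, Elane and Plac8 in the WT library alone, and the part of this in the monocyte values was not tested. Monocytes had 22.7 CPM of Mx1 in the C435A library and 34.9 CPM in the WT library (-0.62, -1.13 to -0.13), and 3.42 and 8.55 CPM of Mx2 (-1.32, -2.68 to -0.13). In the lymphoid classes Mx1 lay between 7.48 and 12.96 CPM in the C435A library and between 6.01 and 10.9 CPM in the WT library, apart from plasma cells. Its log2 ratios there were -0.10 in CD8 T cells, 0.32 in CD4 T cells, 0.34 in other T cells, 0.77 in NK cells and 0.02 in B cells, all with intervals that held 0. Plasma cells had 5.11 CPM in the C435A library and 1.59 CPM in the WT library (1.69, 0.34 to 3.28). In alveolar macrophages Mx1 had 2.12 CPM in the C435A library and 3.59 CPM in the WT library (-0.76, -2.01 to 0.37). Mx2 had 16 UMIs in the C435A library and 5 in the WT library in CD8 T cells, and 19 and 23 in B cells, with intervals that held 0. Neutrophils had 2 UMIs of Mx1 and Mx2 together in the C435A library and 18 in the WT library.

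Rsad2 was the main member of neutrophils. They had 30 UMIs in the C435A library (41.8 CPM) and 163 in the WT library (133 CPM), a log2 ratio of -1.67 (-2.28 to -1.10). Monocytes had 23.1 CPM in the C435A library and 42.8 CPM in the WT library (-0.89, -1.38 to -0.42). It was scarcer in T cells, with 2.23 CPM in the C435A library and 5.03 CPM in the WT library in CD8 T cells (-1.17, -2.01 to -0.36), 4.21 and 9.27 CPM in other T cells (-1.14, -2.24 to -0.13) and 6.10 and 9.45 CPM in CD4 T cells (-0.63, -1.55 to 0.29). B cells (3.45 CPM in the C435A library, 4.29 CPM in the WT library) and alveolar macrophages (4.44 and 6.20 CPM) had intervals that held 0. Its neighbour Cmpk2 was also highest in neutrophils, at 19.5 CPM in the C435A library and 46.6 CPM in the WT library (-1.25, -2.21 to -0.39). Elsewhere Cmpk2 had intervals that held 0, with log2 ratios of -0.55 in CD8 T cells, -0.45 in CD4 T cells, -0.22 in other T cells, -0.29 in B cells, 0.17 in plasma cells, -0.40 in monocytes and -0.58 in alveolar macrophages.

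**Figure D3:**
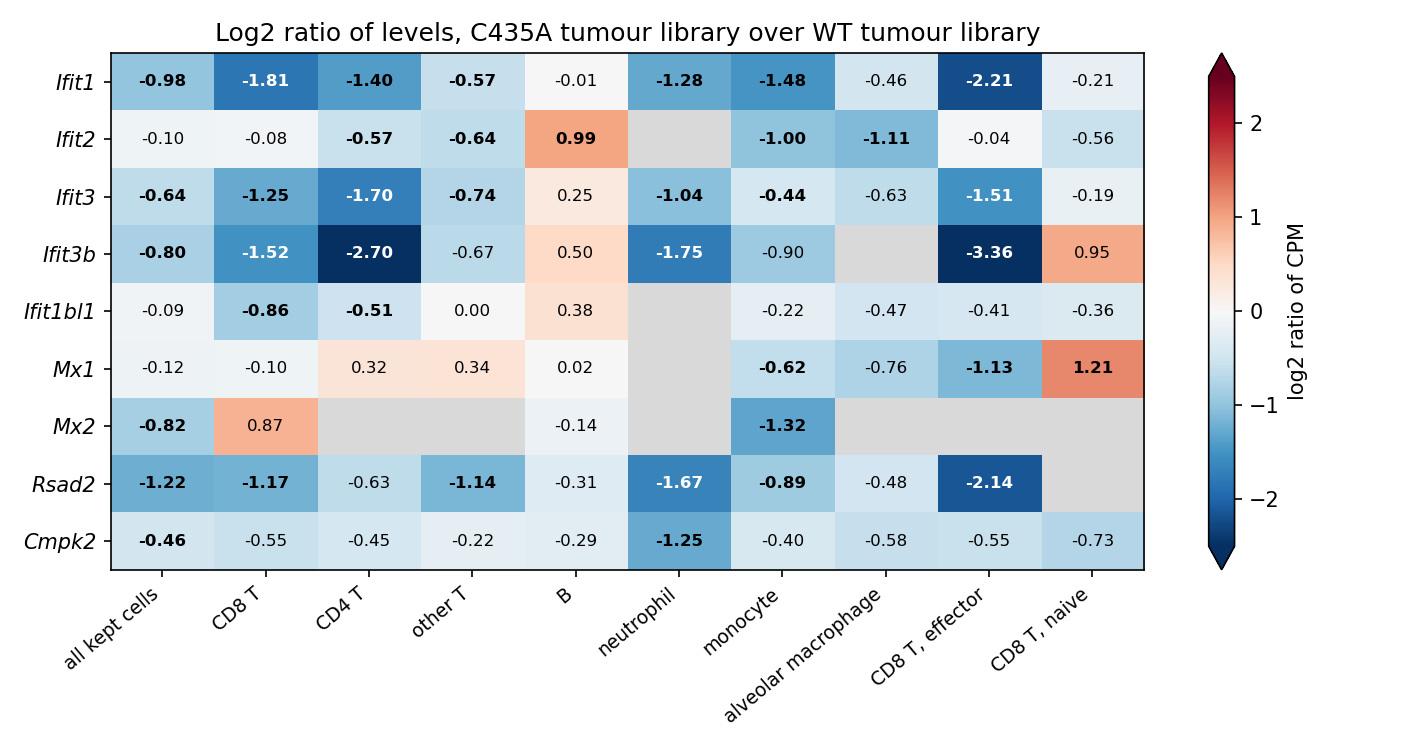
Log2 ratio of CPM, C435A library over WT library, for each gene (rows) over all kept cells, in 7 compared classes and in 2 state gates of CD8 T cells (columns). Bold values have 95% counting intervals that exclude 0, grey cells have under 20 UMIs over both libraries, and the colour scale ends at 2.5 in each direction. Ifit1, Ifit3 and Rsad2 are below 0 in every column of T cells, neutrophils and monocytes with a value, while the B cell column holds values from -0.31 to 0.99.

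CD8 T cells were a different mixture in the 2 libraries. By summed UMIs of state markers, 22.7% were naive in the C435A library and 62.4% in the WT library, 34.1% and 15.6% were effector, and 33.5% and 2.16% were dividing. In effector cells the 9 genes were at 131 CPM in the C435A library and 295 CPM in the WT library (-1.17, -1.41 to -0.94). In naive cells they were at 129 CPM in the C435A library and 136 CPM in the WT library (-0.08, -0.35 to 0.18), an interval that held 0. Without the 10 highest cells of each library, which are a larger part of the 428 naive cells of the C435A library than of the 1098 of the WT library, the naive gate had 82.7 CPM in the C435A library and 114.5 CPM in the WT library. Dividing cells had 38.4 CPM in the C435A library (631 cells) and 86.7 CPM in the WT library (38 cells, too few for a ratio). CD8 T cells of none of these states, 9.76% of the class in the C435A library (184 cells) and 19.9% in the WT library (351 cells), were higher in the C435A library, at 185 CPM (154 to 221) against 126 CPM (108 to 147) in the WT library. The dividing cells were the deepest of the 3 gates, with a median of 8881 UMIs in the C435A library and 7313 in the WT library. They held 6097092 of the 10770244 UMIs of CD8 T cells in the C435A library and 368958 of 6162713 in the WT library.

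Within effector CD8 T cells, 5 of 8 measured members were lower by at least 1.5-fold in the C435A library (13.2% of all genes measured there). Ifit1 had 13.9 CPM in the C435A library and 64.1 CPM in the WT library (-2.21, -2.84 to -1.60), Ifit3 24.5 and 69.5 CPM (-1.51, -2.02 to -0.99) and Mx1 18.6 and 40.6 CPM (-1.13, -1.76 to -0.48). Rsad2 had 10 UMIs in the C435A library and 15 in the WT library (-2.14, -3.45 to -0.88). Ifit2 was level, at 19.7 CPM in the C435A library and 20.3 CPM in the WT library, and Ifit1bl1 had 40.2 and 53.5 CPM, with intervals that held 0. Without the 10 cells with most of these UMIs in each library, the effector gate had 99.4 CPM in the C435A library and 178 CPM in the WT library. In naive cells 1 of 7 members was lower by that much (8.14% of all genes) and 2 were higher (6.34%). Mx1 was one of them, with 11.7 CPM in the C435A library and 5.08 CPM in the WT library (1.21, 0.11 to 2.28), from 15 and 18 UMIs. Ifit1 had 28.9 CPM in naive cells of the C435A library and 33.3 CPM in those of the WT library (-0.21, -0.78 to 0.34). In dividing cells it had 2.30 and 10.8 CPM, from 14 and 4 UMIs, and in CD8 T cells of none of these states 38.2 and 34.9 CPM.

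**Figure D4:**
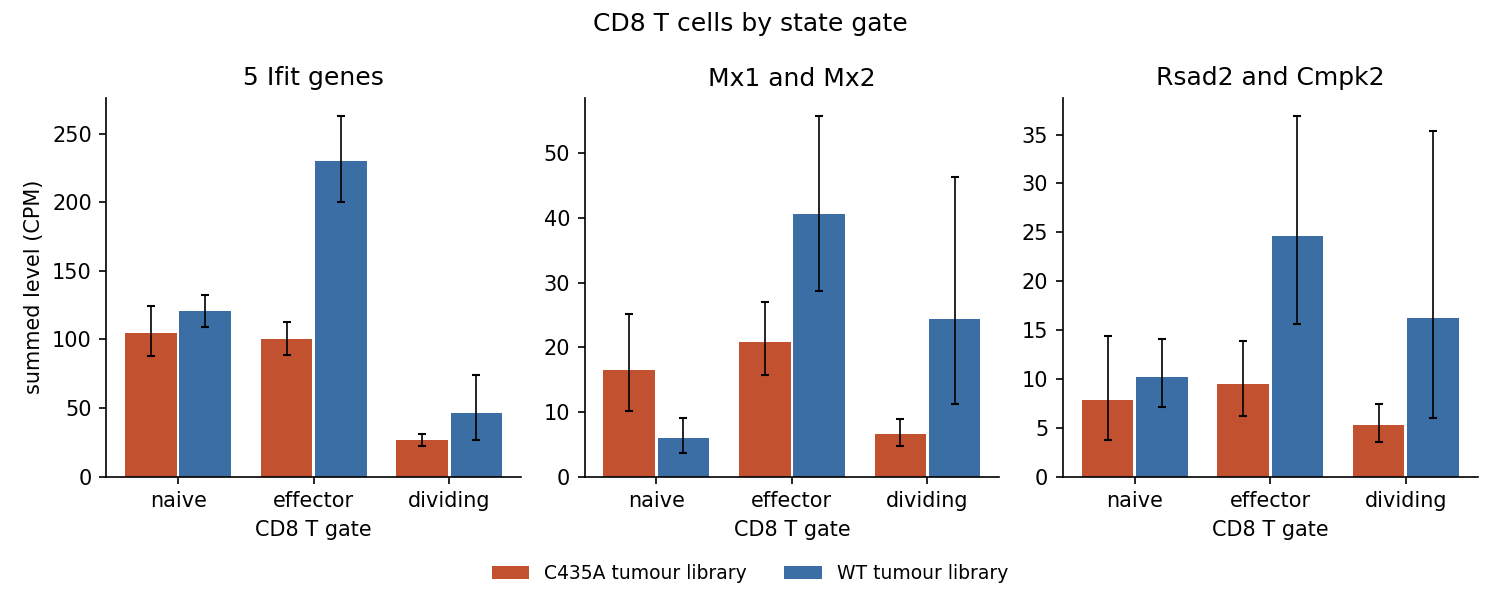
Summed level in CPM (y axes, each with its own scale) of the 5 Ifit genes, of Mx1 and Mx2, and of Rsad2 and Cmpk2 in naive, effector and dividing CD8 T cells (x axes), with the C435A library left of the WT library. Error bars are exact 95% Poisson intervals for counting error. In the effector gate all 3 groups are lower in the C435A library without overlap of the bars, and in the naive gate the Ifit genes stand at 105 CPM in the C435A library and 120 CPM in the WT library.

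To compare shares of cells at 1 depth, cells were thinned to 1000 UMIs each and those with at least 1 UMI of the 9 genes were counted. At that depth the share follows the mean level, and it does not tell fewer cells from fewer transcripts per cell. The share was 6.86% in the C435A library and 9.14% in the WT library over all cells (20.7% and 22.9% before thinning). Neutrophils had 8.51% in the C435A library (5.53 to 12.4) and 18.4% in the WT library (14.5 to 22.7), monocytes 7.22% and 12.8%, CD8 T cells 9.01% and 12.5%, and CD4 T cells 8.54% and 13.4%. The shares in NK cells (3.73% in the C435A library, 2.64% in the WT library) and B cells (5.52% and 5.33%) had overlapping intervals. Alveolar macrophages had 0.882% in the C435A library (0.287 to 2.05) and 4.23% in the WT library (2.63 to 6.39). Plasma cells had the lowest share of the compared classes, with 2 cells in the C435A library (0.714%) and 3 in the WT library (1.43%). They were also the deepest, with medians of 14078 UMIs in the C435A library and 16646 in the WT library before thinning, which leaves less of a deep droplet's free RNA than of a shallow one's. No immune cell is known to lack these genes, so no level for free RNA could be set. Cells with at least 3 such UMIs after thinning made up 0.373% of CD8 T cells in the C435A library and 1.08% in the WT library, and 1.42% and 4.93% of neutrophils.

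A small number of cells held a large share of the UMIs, which was also seen over other genes with as many UMIs as single members. In the C435A library 79.3% of cells had no UMI of the 9 genes, and 56 cells with at least 10 UMIs held 30.0% of the total. In the WT library 77.1% of cells had none, and 85 cells held 37.95%. The 1% of cells with most UMIs held 36.8% of the total in the C435A library and 40.04% in the WT library, and the 10 highest cells held 12.7% and 15.1%. No interval is given for these shares, because the cells were picked as the highest in the same counts. No other sum of genes was set beside them. For single genes with UMIs in the range of single members, the highest 1% of cells held a median of 48.9% in the C435A library and 37.5% in the WT library. These genes had fewer UMIs than the sum, so their shares cannot be set directly against those of the sum. The 10 highest cells held a median of 8.82% and 7.39% of such genes. It took 264 cells in the C435A library and 200 in the WT library to reach 50% of the UMIs of the 9 genes summed. Cells with at least 7 different members numbered 14, 10 and 2 for 7, 8 and 9 members in the C435A library and 15, 11 and 7 in the WT library.

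The single highest cell of each library held most of the UMIs of its class. In the C435A library it was in the conventional dendritic gate and held 172 UMIs of the 9 genes, 71 of them Rsad2, among 14483 UMIs in all, or 3.67% of the library's total. In the WT library it was in the gate for macrophages outside the alveoli and held 344 UMIs, 145 of them Rsad2, among 13180, or 5.39%. These cells gave 57.7% of the UMIs of conventional dendritic cells in the C435A library and 56.4% of those of macrophages outside the alveoli in the WT library. With them, conventional dendritic cells had 356 CPM in the C435A library (102 cells) and 98.6 CPM in the WT library (144 cells), and without the highest cell of each library 153 and 91.5 CPM. Macrophages outside the alveoli had 36.6 CPM in the C435A library (68 cells) and 305 CPM in the WT library (155 cells), and 34.8 and 134 CPM without the highest cell. Without the 10 highest cells of each library, they had 20.4 CPM in the C435A library (9 UMIs) and 31.0 CPM in the WT library (57 UMIs). Conventional dendritic cells then had 65.5 CPM in the C435A library and 61.6 CPM in the WT library. Those 10 cells are a larger part of each class in the C435A library, which had fewer cells. Both classes had under 200 cells and no ratio is given. Mgp, Col1a1, Acta2 and Tagln were among the 10 leading genes of the conventional dendritic gate in the C435A library and not in the WT library. The part of this in the values of that gate was not tested.

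Among the 9 genes, Rsad2 had the largest share of its UMIs in its 10 highest cells. Its highest cell held 14.2% of its UMIs in the C435A library and 13.5% in the WT library, and its 10 highest cells 33.6% and 30.0%. In each library the genes set beside the members ranged from the UMI count of the scarcest member to that of the most abundant. Over these genes the 10 highest cells held a median of 8.82% in the C435A library (4473 genes) and 7.39% in the WT library (5740 genes). Over the same genes the highest 1% of cells held a median of 48.9% in the C435A library and 37.5% in the WT library. By that measure Ifit2 (38.6%), Ifit1bl1 (34.6%), Cmpk2 (42.3%) and Mx1 (48.3%) were below the median gene in the C435A library. In the WT library Ifit1bl1 (34.9%) was. The least that either share can be is higher for genes with fewer UMIs. Mx2 had all its UMIs in the highest 1% of cells of the C435A library, as it had fewer UMIs than there were such cells. Genes of like UMI counts were not compared, so a share below the median does not show a spread over more cells. Ifit1bl1 had the lowest share in its 10 highest cells in the C435A library, where they held 7.60%, and in the WT library, where they held 9.68%. The 10 highest cells held 21.3% of Ifit1 in the C435A library and 17.2% in the WT library, and 8.74% and 19.6% of Cmpk2.

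**Figure D5:**
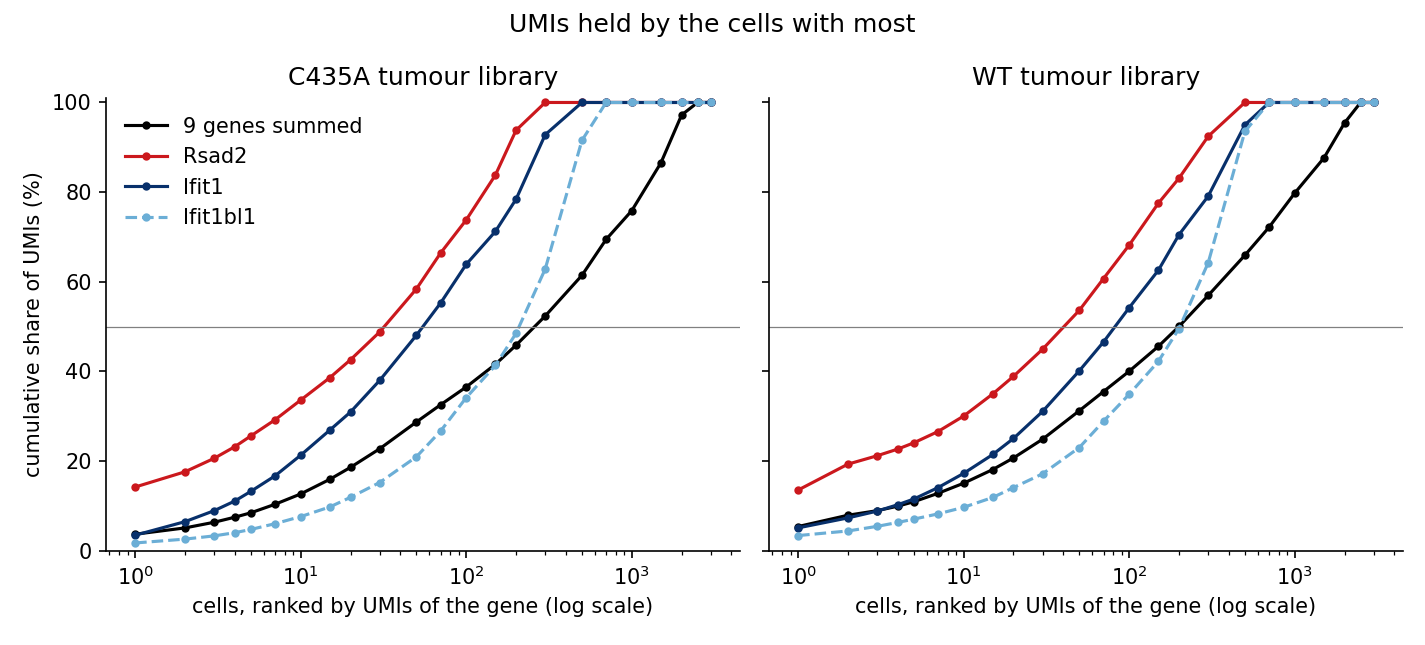
Cumulative share of UMIs (y axis, percent) against the number of cells ranked from the highest down (x axis, log scale) for the 9 genes summed, Rsad2, Ifit1 and Ifit1bl1, with the C435A library left of the WT library. The grey line marks 50%, which Rsad2 reaches at 32 cells in the C435A library and 41 in the WT library, and the summed genes at 264 and 200.

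The cells with most UMIs were of many classes. Of the 100 highest cells, 43 in the C435A library and 28 in the WT library were mixed cells, which have high total UMIs (medians of 9554 and 8926). CD8 T cells gave 15 in the C435A library and 10 in the WT library, monocytes 7 and 13, neutrophils 2 and 10, alveolar macrophages 3 and 8, B cells 7 and 1, and NK cells none in either library. Of all kept cells, CD8 T cells were 18.4% in the C435A library and 17.6% in the WT library, and monocytes 4.63% and 4.40%. Neutrophils were 2.83% and 3.73%, alveolar macrophages 5.52% and 4.98%, B cells 20.4% and 25.8%, and NK cells 8.37% and 3.51%. The lowest of the 100 cells had 5 UMIs in the C435A library and 8 in the WT library. Mixed cells held 34.8% of the UMIs of the 9 genes in the C435A library and 23.5% in the WT library, at 84.7 and 103.3 CPM. Their 10 leading genes included Arg1, C1qc, Mlana, Dct and Tyrp1 in the C435A library and Retnla, C1qa, C1qb, C1qc and Apoe in the WT library. C1qa, C1qb and C1qc are markers of the gate for macrophages outside the alveoli, so UMIs of those markers also stood in cells left out of that gate. In alveolar macrophages 1 cell with 53 UMIs gave 34.9% of the class in the C435A library. Without the 10 highest cells of each library, that class had 6.55 CPM in the C435A library and 24.7 CPM in the WT library (log2 ratio -1.92), and thinning to 1000 UMIs gave -1.40. Monocytes without their 10 highest cells had 67.4 CPM in the C435A library and 120 CPM in the WT library, and neutrophils 46.4 and 185 CPM.

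The remaining small classes are given as levels only. Plasmacytoid dendritic cells, which are known for making type I interferon, had 19 CPM in the C435A library (77 cells, 11 UMIs) and 128 CPM in the WT library (96 cells, 82 UMIs). Cells of the melanoma gate had 43.0 CPM in the C435A library (37 cells) and 60.0 CPM in the WT library (103 cells), with Rsad2 as the leading member (19 UMIs in the C435A library, 52 in the WT library). In that gate Irf7, the gene altered in the tumour cells, had 1 UMI in the C435A library and 3 in the WT library, and a change of 1 amino acid cannot be read from UMI counts. Conventional dendritic cells were the class with most Mx1, at 119 CPM in the C435A library and 64.5 CPM in the WT library, from 100 and 85 UMIs.

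In CD8 T cells and neutrophils, Ifit1 was seen more often in cells with a UMI of Rsad2 than in those without. Not every other member showed this in every class. Among CD8 T cells with a UMI of Rsad2, Ifit1 was seen in 8 of 16 in the C435A library (95% interval 24.7 to 75.3%) and 13 of 20 in the WT library (65.0%, 40.8 to 84.6). In CD8 T cells without Rsad2 the shares were 3.53% and 7.41%. Among neutrophils with a UMI of Rsad2, Ifit1 was seen in 4 of 19 in the C435A library (21.1%, 6.05 to 45.6) and 11 of 70 in the WT library (15.7%, 8.11 to 26.4), and in 2.94% and 1.98% of those without. Median total UMIs of cells with and without Rsad2 were 3676 and 4316 in CD8 T cells of the C435A library, and 3285 and 3189 in the WT library, and over all kept cells 6561 and 3380 in the C435A library, and 5782 and 2768 in the WT library. Neutrophils were shallower, with medians of 1700 UMIs with Rsad2 and 1693 without in the C435A library, and 2121.5 and 1966 in the WT library. The part of depth in this contrast was not tested.

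Of 40 other interferon-induced genes, 11 were lower by at least 1.5-fold in the C435A library over all kept cells and none was higher (18.1% and 7.80% of all genes), with a median log2 ratio of -0.25. In CD8 T cells 21 of 38 were lower (median -0.62, 21.0% of all genes), in alveolar macrophages 20 of 39 (-0.70, 5.02%), in CD4 T cells 10 of 36 (-0.20, 12.5%) and in monocytes 9 of 39 (-0.41, 8.97%). The counts of 4 of 36 in other T cells (-0.07, 9.27%) and 3 of 35 in neutrophils (-0.16, 10.6%) were near the share of all genes, and in B cells none of 37 was lower (-0.01, 5.55%). In NK cells 2 of 28 were lower (-0.12, 9.32%). Plasma cells went the other way, with a median of 0.30, where the median of all genes measured there was 0.13. There none of 26 was lower (5.80% of all genes) and 5 were higher (9.28%). Neutrophils were thus the class with the widest gap in the 9 genes but not in this list. Slfn4, a Schlafen gene of myeloid cells, had 5.52 CPM in the C435A library and 13.1 CPM in the WT library (-1.25, -1.44 to -1.06). Oas2, an oligoadenylate synthetase, had 5.87 and 13.5 CPM (-1.20, -1.39 to -1.01), and Slfn5 29.8 and 58.2 CPM (-0.97, -1.05 to -0.88). Neutrophils had more of Isg15, a ubiquitin-like modifier, in the C435A library (305 CPM) than in the WT library (193 CPM, 0.66, 0.39 to 0.93), opposite to the 9 genes. Over all kept cells, Sp100, a nuclear body protein (0.57, 0.53 to 0.60), Phf11b (0.55, 0.47 to 0.62) and Samhd1, which degrades nucleotides (0.15, 0.11 to 0.18), had the highest ratios. Isg15 had 50.2 CPM in the C435A library and 69.6 CPM in the WT library (-0.47, -0.54 to -0.40), and Irf7 34.3 and 43.6 CPM (-0.35, -0.43 to -0.26).

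Across the 18 sums of a class and a library, the levels of the members were alike to different degrees, described by the correlation of log2(CPM + 1) of each with the other 8 summed. It was 0.94 for Ifit3, 0.93 for Ifit3b and 0.84 for Ifit1, and lower for Cmpk2 (0.72), Ifit2 (0.67), Rsad2 (0.64), Mx1 (0.57), Mx2 (0.56) and Ifit1bl1 (0.54). Of 12501 genes, the 10 whose levels were most like the 9 summed were Rtp4 (0.93), Irf9 (0.91), Slfn2 (0.91), Slfn1 (0.90), Stk38 (0.89), Slfn5 (0.89), Rnf31 (0.88), Irgm2 (0.88), Ddx60 (0.87) and Usp18 (0.87). The sums of 1 library share its depth and its free RNA, so these values describe the 2 libraries only. Rtp4, Irf9, Slfn1, Slfn5 and Usp18 are on the list of other interferon-induced genes.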

How the data were processed

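The values are UMI counts as deposited by the authors, 1 matrix per library. Per the file headers they were made with Cell Ranger 7.2.0, and per the submitters' processing notes on GRCm38. The labels' protocols name both BD Rhapsody and a 10x 3' kit, so the capture platform is uncertain. The sources used here do not give the annotation release, the intron and strand settings, the cell calling or the number of mice. Of 55357 feature IDs, 94.1% were found in GENCODE M21. Other deposited tables that hold the same counts were not used.

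Barcodes were kept from 500 UMIs and 200 genes upward where mitochondrial UMIs stayed below 20%, which removed 102 in the C435A library and 157 in the WT library. The kept cells held 59420595 UMIs in the C435A library and 54592546 in the WT library. Cells were gated by summed marker UMIs (minimum 2 for T, 3 for NK and B, 4 for monocytes, 5 for neutrophils and both macrophage gates, 6 for plasma and 8 for melanoma cells, 4 or 5 for dendritic gates, and 10 for monocytes in cells over a T, NK or B gate). CD8 T cells needed 2 UMIs of Cd8a and Cd8b1 and CD4 T cells 1 of Cd4, with none of the other. No doublet caller was run, and cells over the gates of more than 1 lineage were left out of classes. CD8 T cells were dividing with at least 5 UMIs of cell cycle genes, effector with at least 10 of effector genes and more of them than of naive genes, and naive with at least 3 of naive and under 5 of effector genes.

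Member UMIs over total UMIs gave CPM, which is not divided by gene length because reads come from transcript ends. Log2 ratios, C435A over WT, have exact conditional 95% intervals, shares of cells have Clopper-Pearson intervals, and both cover counting error only. Ratios needed 20 UMIs over both libraries and classes 200 cells in each. Checked on simulated Poisson counts for all kept cells (18102 genes), intervals held the set value for 97.5% of changed and 95.5% of unchanged genes. Poisson counts are what the intervals assume, so coverage near 95% was built into this check. The check covers the calculation only. It cannot show how well the intervals hold for real UMIs, many of which were held by few cells. Python 3.11.15, numpy 2.4.6, scipy 1.17.1 and edgeR 4.0.16 (TMM scaling only) were used.

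The members, markers and gene lists were chosen with earlier results of these data known. All 9 members are named, with values in each class where they had 20 UMIs. Of the other interferon-induced genes, those with the 3 highest and 3 lowest ratios by the interval bound nearest 0 are named, with Isg15 and Irf7, and genes of like pattern are the 10 highest correlations among genes with at least 200 UMIs.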

Additional observations from a re-analysis of the deposited data

Results flagged for a closer look

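The ratio of 2 members had opposite directions in different classes, each with an interval that excluded 0. Ifit2 was higher in the C435A library in B cells (0.99, 0.37 to 1.63) and lower in 4 other classes, from -1.11 in alveolar macrophages to -0.57 in CD4 T cells. Mx1 was higher in the C435A library in plasma cells (1.69, 0.34 to 3.28) and in naive CD8 T cells (1.21, 0.11 to 2.28), and lower in monocytes (-0.62) and effector CD8 T cells (-1.13). These differences between classes were not tested, since each group was 1 library. The Mx1 UMIs of plasma cells came from 8 cells in the C435A library.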

How the results depend on the processing

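No alternative reversed a ratio of the 9 genes summed whose interval excluded 0. Ratios of single members in the compared classes were redone with TMM and median-ratio factors only. The flagged ratios of Ifit2 and Mx1 were not tried with other gates or without the highest cells. Over all kept cells the summed ratio stayed below 0 under all 10 alternatives, at -0.50 with TMM, -0.45 with median-ratio factors, -0.66 without the 1% deepest cells, -0.68 without mixed cells and -0.64 with every cell counting alike, and 4 to 6 members were at least 1.5-fold lower. Of the other interferon-induced genes, 7 rather than 11 were lower with median-ratio factors and 7 with every cell counting alike. CD8 T cells gave -0.80 with TMM, -0.79 with median-ratio factors, -0.60 with cells alike, -0.62 thinned, -0.081 in the naive gate and -1.17 in the effector gate. CD4 T cells gave -0.44 with gates 1 UMI higher and -0.66 with mixed cells given to their strongest gate. Other T cells gave -0.67 with higher gates, -0.26 with cells alike and -0.24 thinned. B cells turned to -0.13 with the strongest gate and -0.072 without the 10 highest cells, and plasma cells to -1.0 thinned, from 2 UMIs in the C435A library and 3 in the WT library, fewer than the 20 asked of a ratio. Neutrophils gave -1.99 without the 10 highest cells. Monocytes gave -1.16 with gates 1 UMI lower, -0.50 with the strongest gate and -1.23 thinned. Alveolar macrophages gave -1.07 with lower gates, -1.04 with the strongest gate, -1.05 without 1 cell, -1.92 without 10 cells and -1.40 thinned. The 10 highest cells held 9.21% in the C435A library and 9.49% in the WT library after thinning. The highest 1% held 36.5% in the C435A library and 34.8% in the WT library after thinning, the opposite order to that before thinning. Without the deepest cells they held 35.2% in the C435A library and 40.1% in the WT library. The causes were not tested. Without replicates, no animal-to-animal spread is known, and no paired analysis was possible because each group was 1 library. Leaving out 1 cell, weighting classes alike, thinning the cells of a class, and every alternative for the 2 counts of genes were chosen after seeing the data.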
